A study of Mus musculus with 30 samples.

Results

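The 79 genes described here encode nuclear subunits of the mitochondrial respiratory chain and of ATP synthase. They were chosen by symbol from 19938 genes that had a probe set of their own: every gene whose symbol begins with Nduf followed by a, b, c, s or v and a digit, Sdha to Sdhd, every Uqcr gene, Cox4 to Cox8 followed by a, b or c, and every Atp5 gene. By this rule 35 genes belonged to complex I, 4 to complex II, 8 to complex III, 15 to complex IV and 17 to ATP synthase. Cox4i1, Cox4i2, Ndufab1 and Cyc1 fall outside it although they are subunits too. Another 6 probe sets named a subunit together with a second gene (Cox7c, Ndufb4 or Ndufs5) and were left out.

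The study set mouse ES cells beside 2 iPS clones, ST5 and ST8, before and after 5 days of differentiation towards definitive endoderm, and beside endoderm taken from embryos. All ES and iPS cells were of C57BL/6x129SvJae strain. Day 0 cells were sorted as Sox2bright and day 5 cells as ckit+/Sox2dim, so that differentiation and the sort gate cannot be told apart in any comparison of the days. Each iPS group is 1 clone, so a difference between ST5, ST8 and ES may be one of single lines. The 18 unamplified arrays held ES, ST5 and ST8 at both days. A further 12 arrays held RNA amplified with NuGEN kits from ES cells at day 0 and day 5 and from Swiss Webster embryos of E8.25. The embryos gave foregut endoderm, sorted as ENDM1+/Epcam+/SSlo, and a comparison population that was Epcam+ but negative for ENDM1. Each of the 10 groups had 3 arrays, labelled as biological replicates. Values are log2 expression per probe set, and all differences below are log2 differences between group means, where a difference of 1 is a 2-fold change.

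The respiratory chain passes electrons from NADH and succinate to oxygen and pumps protons across the inner mitochondrial membrane. Complex I takes electrons from NADH, complex II from succinate, complex III hands them to cytochrome c, complex IV reduces oxygen, and ATP synthase uses the proton gradient to make ATP. Most subunits are encoded in the nucleus and imported, while a few core subunits are encoded in mitochondrial DNA. Some complex IV subunits exist as isoforms restricted to muscle or testis, and pluripotent stem cells are known for relying heavily on glycolysis.

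The sorted populations carried the markers their labels call for, with limits. The mean of 9 pluripotency markers was 10.05 to 10.39 on the unamplified day 0 arrays and 5.94 to 7.26 on those of day 5, and that of 9 definitive endoderm markers was 5.93 to 7.08 at day 0 and 8.29 to 9.56 at day 5. The endoderm mean was 7.45 to 7.68 in embryo foregut, 6.48 to 6.63 in ENDM1-negative cells and 7.8 to 8.6 in amplified ES cells at day 5. The mean of 9 foregut markers was 8.03 to 8.07, 6.98 to 7.23 and 7.48 to 7.91 in the same order, and 6.14 to 6.3 in amplified ES cells at day 0. Within a group 3 arrays stood apart from their companions. The day 5 replicate 1 of ES cells had an endoderm mean of 9.51 against 8.38 and 8.34, replicate 2 of ST8 at day 5 had 9.54 against 8.41 and 8.29, and replicate 1 of the amplified day 5 ES cells had 8.6 against 7.81 and 7.8. The labels do not say whether amplified and unamplified ES arrays used the same RNA, and replicate 1 stood apart in both sets. All 8 fibroblast markers fell between the days in every response, from array means of 7.66 to 8.27 down to 4.91 to 5.43 without amplification. The part that fewer fibroblasts (feeder cells) play in any fall described here was not tested. In these bulk samples fewer cells of a type and less RNA per cell cannot be told apart.

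The median log2 value of the subunit genes' probe sets lay between 8.68 and 9.02 on the unamplified arrays, where the median of all genes lay between 5.87 and 6.01, and between 9.98 and 10.27 on the amplified arrays, where that of all genes lay between 5.84 and 5.95. Probe sets differ in how brightly they read a transcript, so these medians describe signal and do not rank the genes by expression. Signal near or below the median of all genes leaves little room to see a change, and it was found for Cox7b2, at or below 3.80 on all 30 arrays, and for Cox8b, Cox8c, Cox6a2 and Ndufa4l2. Ndufb10 read 5.13 to 5.84 on the unamplified arrays and 9.33 or more on the amplified ones.

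During differentiation the members' median moved little, and in ES cells and ST5 most of the members that changed fell, while in ST8 they were split. In ES cells 27 of the 79 genes were lower at day 5 and 3 were higher (limma, adjusted p under 0.05), while 19.7% of all genes were called lower and 18.9% higher. In ST5 38 were lower and 4 higher, against 24.8% and 23.2% of all genes. In ST8 13 were lower and 12 higher, against 19.5% and 21.0%. The median difference of the members was -0.10, -0.17 and -0.02 in ES cells, ST5 and ST8, and that of all genes was 0.02, -0.04 and -0.01. ST5 had 1 member, Cox6b2, that was called and changed by more than 2-fold, and ES cells and ST8 had none.

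**Figure D1:**
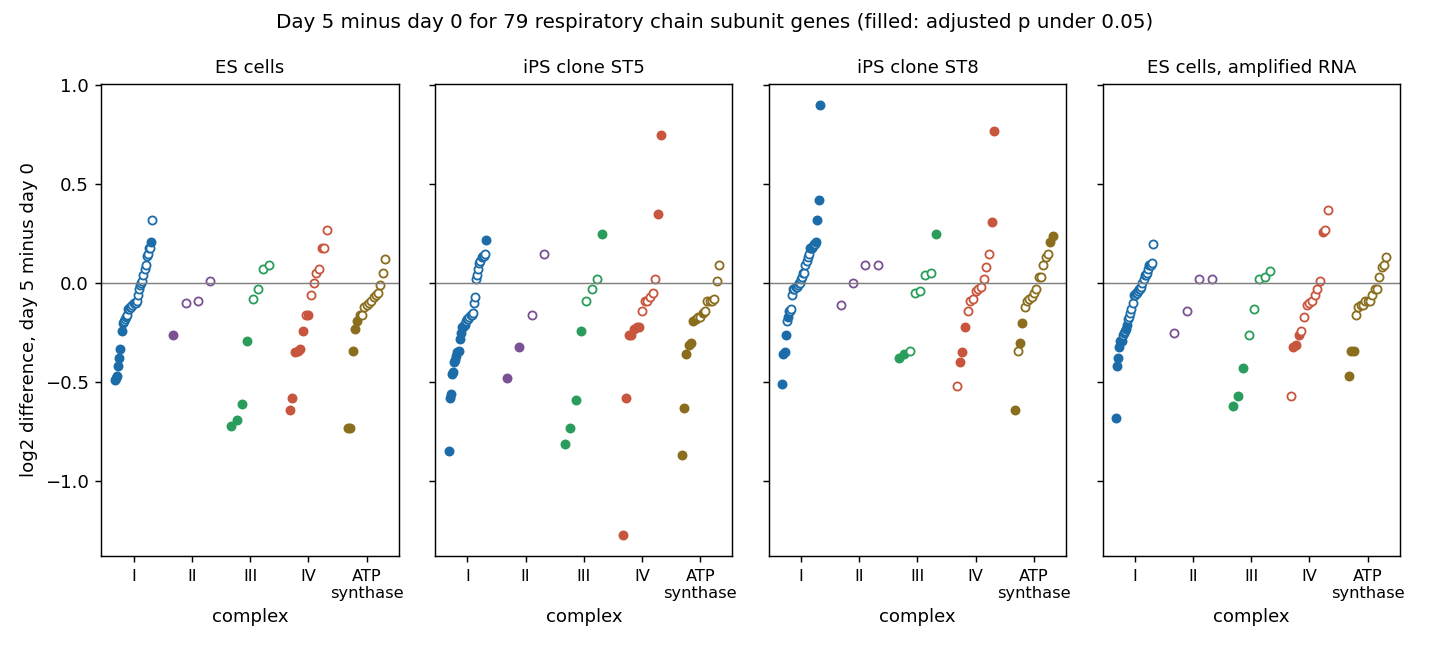
Each point is 1 of the 79 genes, placed by its log2 difference between day 5 and day 0 (vertical axis) and by complex (horizontal axis), in ES cells, ST5, ST8 and the amplified ES cells. Filled points passed the test at an adjusted p under 0.05; within a complex the points are ordered by value. Most filled points lie below 0 in ES cells and ST5 (27 of 30 and 38 of 42), and in ST8 they lie on both sides (13 below, 12 above).

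In the amplified ES cells 18 members were lower and 1 was higher, with 13.8% and 13.0% of all genes called in those directions, and the median of the members was -0.09 against -0.02 for all genes. Of the 79 genes 70 (88.6%) had the same sign of difference under both labellings, against 74.3% of all genes, and 16 (20.3%) were called lower under both, against 12% of all genes (2383 of 19938). The differences correlated with Pearson's r = 0.85 across the 79 genes and 0.89 across all 19938, as a description of genes measured on different arrays that may share RNA. No member was called in the limma test of the amplified against the unamplified ES response, in which 1.47% of all genes were called. In that test 4 members had an unadjusted p under 0.05, a count that is not given for all genes.

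**Figure D2:**
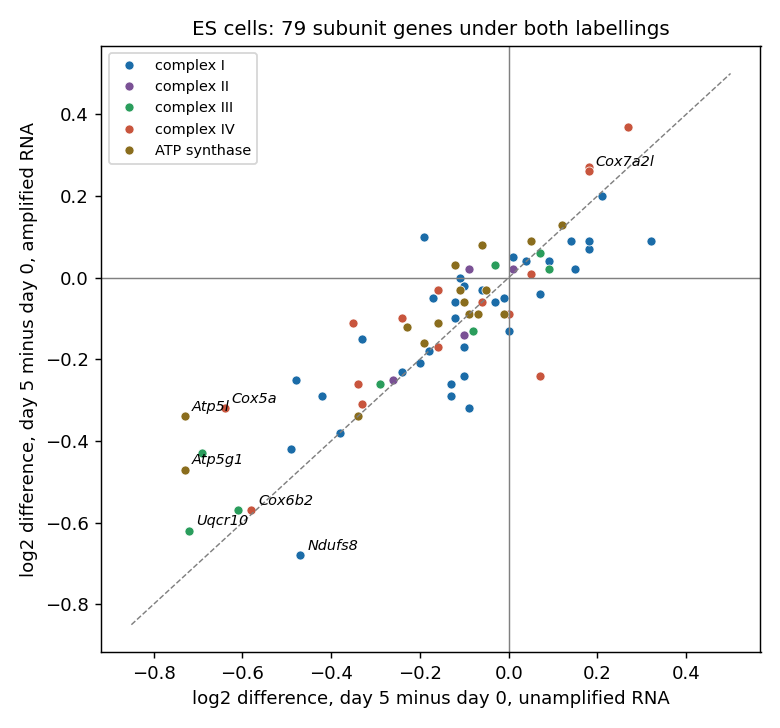
Each point is 1 of the 79 genes, with its log2 difference between day 5 and day 0 in ES cells on unamplified arrays (horizontal axis) and on amplified arrays (vertical axis), coloured by complex. The dashed line marks equal differences. Genes such as Uqcr10, Atp5g1 and Ndufs8 lie low on both axes, and 70 of the 79 genes have the same sign on both.

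Of the members 13 (16.5%) were called lower in all 3 lines, where 14.3% of all genes were, a share close to that of the members. These were Ndufv1, Ndufs1, Ndufs8, Ndufa10 and Ndufb6 of complex I, Uqcr10 and Uqcrc1 of complex III, Cox5a, Cox6a1 and Cox6c of complex IV, and Atp5a1, Atp5b and Atp5g1 of ATP synthase. Of these 11, all but Atp5b and Cox6c, were also lower in the amplified ES cells (13.9% of the members, against 10.3% of all genes). Ndufb7, an accessory subunit of complex I, was the only member called higher in all 3 lines (1.27%), where 13.8% of all genes were. In none of the 3 lines were 28 of the members called (35.4%, against 41.2% of all genes), among them Ndufa9, Uqcrfs1, Uqcrc2, Sdhc, Sdhd, Cox6b1, Cox7a2 and Atp5g3. The 3 responses come from separate arrays, but the members share the same small set of samples, so this count describes these lines only.

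In ATP synthase the 3 genes for subunit c, the subunit of the rotating membrane ring, went different ways. Atp5g1, Atp5g2 and Atp5g3 encode the same mature protein behind different import sequences. The promoters of these genes are shown because the data separate genes that make the same protein. Each line holds the 200 bases before the start of the gene in RefSeq (GRCm38.p6), 5′ to 3′ on the strand of the gene, and capitals mark a match to the core of the NRF1 motif, GCGCATGC, to an ETS motif, CCGGAAG, as GABPA binds, or to a YY1 motif, AANATGGC, on either strand. NRF1, GABPA and YY1 are factors known for binding promoters of respiratory chain genes. The windows are chr11:96075632-96075831 for Atp5g1, chr15:102671048-102671247 for Atp5g2 and chr2:73911327-73911526 for Atp5g3, all on the minus strand.
Atp5g1: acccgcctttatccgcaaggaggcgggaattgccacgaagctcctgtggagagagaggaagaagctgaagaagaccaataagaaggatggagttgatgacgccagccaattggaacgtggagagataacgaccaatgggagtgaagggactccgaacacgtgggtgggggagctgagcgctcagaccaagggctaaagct
Atp5g2: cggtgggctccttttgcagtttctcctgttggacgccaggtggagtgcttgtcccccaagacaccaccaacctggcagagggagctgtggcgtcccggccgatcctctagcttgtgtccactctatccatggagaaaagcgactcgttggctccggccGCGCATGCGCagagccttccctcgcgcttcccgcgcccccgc
Atp5g3: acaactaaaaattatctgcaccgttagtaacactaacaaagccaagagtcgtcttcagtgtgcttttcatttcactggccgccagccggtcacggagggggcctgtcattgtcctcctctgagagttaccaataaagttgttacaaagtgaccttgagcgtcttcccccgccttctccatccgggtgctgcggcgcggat
Only the window of Atp5g2 held a match, to NRF1 on both strands in overlapping positions, beginning 42 and 40 bases before the start.

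Atp5g1 lay at 8.72, 8.78 and 8.67 in ES cells at day 0 and at 8.13, 8.0 and 7.84 at day 5. It lay at 8.85, 8.84 and 8.70 in ST5 at day 0 and at 8.02, 7.82 and 7.94 at day 5. It lay at 8.64, 8.62 and 8.66 in ST8 at day 0 and at 7.96, 7.99 and 8.05 at day 5. All 9 day 5 arrays were below all 9 day 0 arrays. The difference was -0.73 ± 0.08 (SE), -0.87 ± 0.08 and -0.64 ± 0.08 for ES cells, ST5 and ST8 (limma, adjusted p = 9.18e-07, 7.84e-08 and 3.46e-06). In the amplified ES cells it was -0.47 ± 0.09 (adjusted p = 0.00163). A second probe set of Atp5g1 gave -0.62, -0.80, -0.61 and -0.39.

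Atp5g2 differed by 0.12 ± 0.06, -0.09 ± 0.06 and 0.21 ± 0.06 in the same order, and only the ST8 value passed the test (limma, adjusted p = 0.00789). Atp5g3 differed by -0.05 ± 0.07, -0.09 ± 0.07 and 0.03 ± 0.07 and passed in none. Both genes lay at or above 10.31 on every unamplified array, but levels of different probe sets are not comparable, so the share of subunit c that each gene supplies cannot be read from them.

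**Figure D3:**
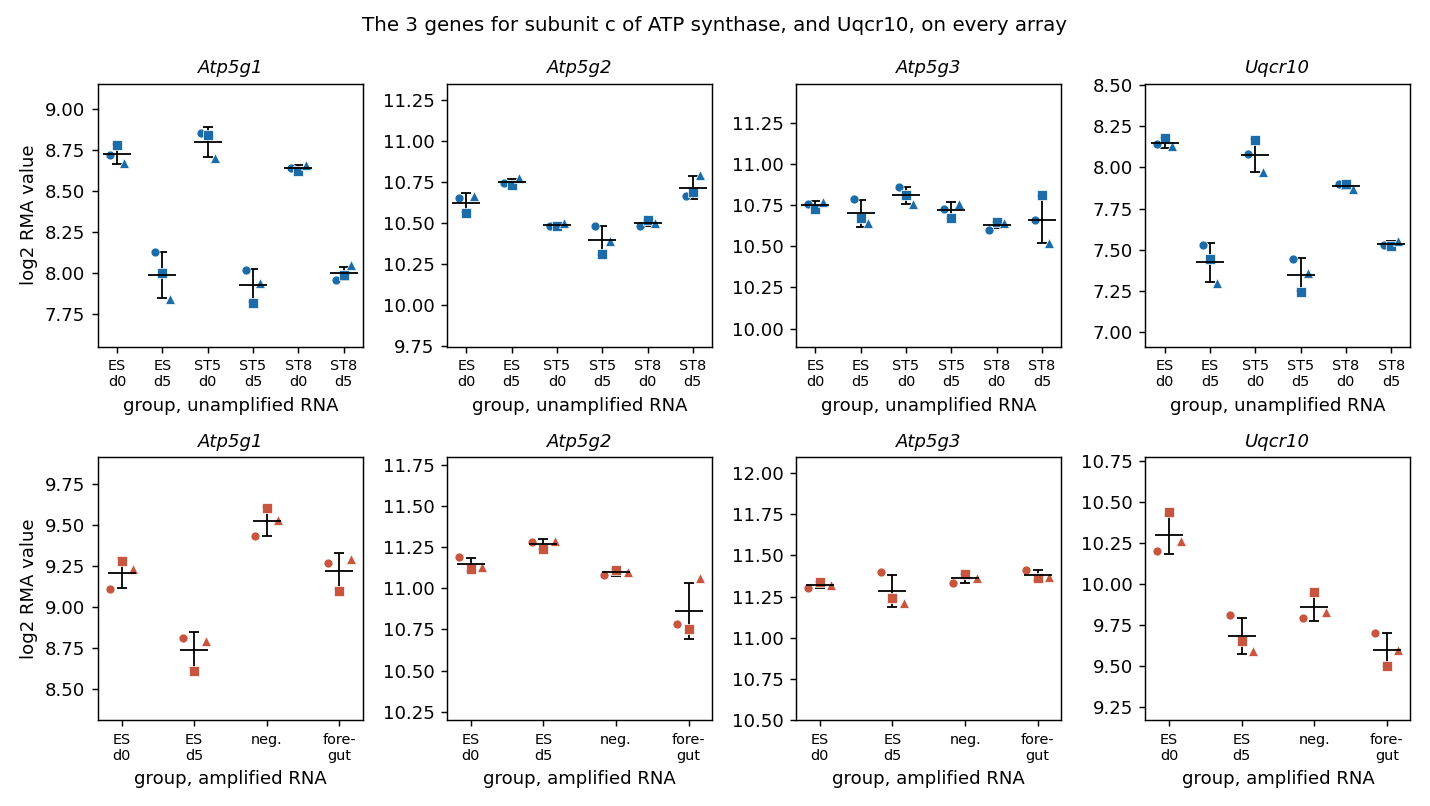
Each panel shows 1 gene: points are single arrays (circle, square and triangle for replicates 1, 2 and 3), in log2 RMA values, and bars are the mean ± SD of 3 arrays; the upper row has unamplified and the lower row amplified RNA, with neg. for the ENDM1-negative embryo cells. Atp5g1 and Uqcr10 are lower at day 5 than at day 0 in every line without overlap, while Atp5g2 and Atp5g3 stay within 0.21 of their day 0 means.

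Of the other 14 ATP synthase genes, Atp5a1 and Atp5b encode the alpha and the catalytic beta subunit of the F1 head. Atp5a1 was 11.81 to 11.86 at day 0 and 11.49 to 11.52 at day 5 in ES cells, and Atp5b had means of 12.01 ± 0.01 and 11.79 ± 0.04 (SD, n = 3), with no overlap in either. Atp5l, which encodes subunit g of the membrane part, fell from 8.26, 8.54 and 8.22 to 7.95, 7.52 and 7.37 in ES cells. Its difference was -0.73 ± 0.14 (limma, adjusted p = 0.000539). In all, 6 of the 17 ATP synthase genes were lower in ES cells and 8 in ST5, with none higher, and 3 were lower and 2 higher in ST8.

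In complex III the falls were those of a few subunits, and they were among the larger ones of the chain. Uqcr10, a small subunit, lay at 8.14, 8.18 and 8.13 in ES cells at day 0 and at 7.53, 7.44 and 7.30 at day 5. It went from 8.08, 8.17 and 7.97 to 7.44, 7.24 and 7.36 in ST5, and from 7.90, 7.90 and 7.87 to 7.53, 7.52 and 7.55 in ST8. Its difference was -0.72 ± 0.07, -0.73 ± 0.07 and -0.36 ± 0.07 in the 3 lines (limma, adjusted p = 5.6e-07, 3.03e-07 and 0.000594), and -0.62 ± 0.09 in amplified ES cells. Uqcrc1, a large core protein on the matrix side, fell by 0.61, 0.59, 0.38 and 0.57 in the same order. Uqcrq, another small subunit, fell by 0.69 in ES cells, 0.81 in ST5 and 0.43 in amplified ES cells. Uqcrh, the hinge protein near cytochrome c1, went the other way in ST5 and ST8. In ST5 it went from 9.06, 8.99 and 8.93 to 9.41, 9.14 and 9.19. The rise was 0.25 ± 0.07 (limma, adjusted p = 0.0089, and 0.0632 without replicate 1 of ST5 at day 5). In ST8 it rose by 0.25 ± 0.07 as well, without overlap of the arrays (limma, adjusted p = 0.0132). Of the 8 genes 4 were lower in ES cells and in ST5, 3 in amplified ES cells and 2 in ST8. In ST5 and in ST8 1 gene was called higher.

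In complex I the lowest member in each of the 3 lines was Ndufv1, which binds FMN and takes the electrons from NADH. It went from 9.21, 8.96 and 9.11 to 8.47, 8.72 and 8.62 in ES cells, from 9.13, 9.17 and 9.24 to 8.47, 8.20 and 8.33 in ST5, and from 9.21, 9.14 and 9.15 to 8.69, 8.65 and 8.62 in ST8. No day 5 array reached any day 0 array of its line, and the differences were -0.49, -0.85 and -0.51, each with an SE of 0.08 (limma, adjusted p = 0.000135, 3.02e-07 and 8.24e-05). Ndufs8, an iron-sulfur subunit, fell by 0.47, 0.45 and 0.26 in the 3 lines and by 0.68 in amplified ES cells, and Ndufs1, the largest core subunit, fell by 0.36 in ST8. Ndufb7 rose from 8.34, 8.39 and 8.33 to 8.60, 8.53 and 8.55 in ES cells, by 0.22 in ST5 and by 0.32 in ST8; in amplified ES cells it differed by 0.20 (adjusted p = 0.144). Ndufs3 rose by 0.18 ± 0.06 in ES cells (adjusted p = 0.0161), a call lost without replicate 3 of either ES group (adjusted p = 0.0576 and 0.0565). In ST8 it rose by 0.21 ± 0.06 without overlap of the arrays (limma, adjusted p = 0.00519). Ndufa6 rose by 0.42 ± 0.07 in ST8, without overlap of the arrays (limma, adjusted p = 0.000175), and was not called in ES cells (0.14, adjusted p = 0.142). The test of its ST8 response against its ES response was not passed (0.28 ± 0.1, limma, adjusted p = 0.293). Of the 35 genes grouped as complex I 9 were lower and 2 higher in ES cells, 17 and 1 in ST5, 5 and 7 in ST8, and 9 and 0 in amplified ES cells. The grouping follows the symbols, so these counts include Ndufa4, which sits in complex IV, and its relative Ndufa4l2, which was called higher in ST8.

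Complex II, which also serves the tricarboxylic acid cycle, has 4 subunits, of which 1 was called lower in ES cells, 2 in ST5 and none in ST8. Sdhb, the iron-sulfur subunit, lay at 8.42, 8.36 and 8.45 in ES cells at day 0 and at 8.20, 8.20 and 8.05 at day 5. In ST5 it went from 8.39, 8.27 and 8.27 to 7.87, 7.84 and 7.78, and in ST8 from 8.20, 8.17 and 8.23 to 8.24, 8.18 and 8.19. It fell by 0.26 ± 0.06 in ES cells and by 0.48 ± 0.06 in ST5 (limma, adjusted p = 0.0026 and 5.37e-06), and the ST8 arrays of the 2 days overlapped. Sdha, the flavoprotein that oxidises succinate, fell by 0.32 ± 0.06 in ST5 (adjusted p = 0.000464). Neither membrane anchor, Sdhc or Sdhd, was called in any response. Tests of one line's response against another's called Sdhb alone among these 4, for ST8 against ST5 (0.48 ± 0.09, limma, adjusted p = 0.0197), and that call was lost when only those groups were fitted.

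In complex IV an isoform known from testis, Cox6b2, and one known from muscle, Cox7a1, had the most negative and the most positive difference of all members in ST5. The promoters of Cox6b2 (chr7:4753095-4753294, minus strand) and Cox7a1 (chr7:30183971-30184170, plus strand) are shown beside that of Cox6a1 (chr5:115348959-115349158, minus strand), a widely expressed isoform that was called lower in all 3 lines, in the same format as above.
Cox6b2: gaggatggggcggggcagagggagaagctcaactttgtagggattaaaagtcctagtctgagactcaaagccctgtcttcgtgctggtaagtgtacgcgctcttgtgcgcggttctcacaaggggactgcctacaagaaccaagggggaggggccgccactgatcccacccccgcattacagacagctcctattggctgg
Cox7a1: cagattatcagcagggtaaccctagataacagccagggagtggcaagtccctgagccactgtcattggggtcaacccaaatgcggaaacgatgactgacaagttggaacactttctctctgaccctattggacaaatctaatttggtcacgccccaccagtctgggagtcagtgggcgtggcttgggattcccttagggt
Cox6a1: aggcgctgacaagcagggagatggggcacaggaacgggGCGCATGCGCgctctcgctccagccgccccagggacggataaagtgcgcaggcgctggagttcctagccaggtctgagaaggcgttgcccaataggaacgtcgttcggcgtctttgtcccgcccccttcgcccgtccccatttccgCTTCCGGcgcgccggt
The window of Cox6a1 held overlapping NRF1 matches, 162 and 160 bases before the start, and an ETS match 16 bases before it. The windows of Cox6b2 and Cox7a1 held no match to these letters.

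Over 300 bases around the start (250 before, 50 after), a promoter was at hand for 66 of the 79 members. The NRF1 core was found in 10 of them (15.2%), against 3.05% of all 27025 genes with a promoter and 3.93% of the protein-coding ones. A gene with several promoters was counted as holding a motif if any of them did. The ETS motif was found in 17 (25.8%), against 9.93% and 12.9%, and the YY1 motif in 17 (25.8%), against 6.96% and 7.46%. The 3 motifs were counted on both strands and may overlap. Of the 11 genes lower in all 3 lines and in amplified ES cells, 9 had a promoter, and 2, 3 and 1 of those held the NRF1, ETS and YY1 motif. These are counts of letters and not of bound sites.

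Cox6b2, the testis isoform of Cox6b, had the most negative difference of any member in ST5; in ES cells Atp5g1, Atp5l, Uqcr10, Uqcrq and Cox5a among others fell further, and in ST8 its difference did not pass the test. It lay at 8.13, 7.91 and 8.16 in ES cells at day 0 and at 7.01, 7.71 and 7.74 at day 5. In ST5 it went from 7.90, 7.97 and 7.93 to 6.77, 6.54 and 6.68, and in ST8 from 8.04, 8.13 and 8.0 to 7.80, 6.94 and 7.86. The low values at day 5 were those of all 3 ST5 arrays, ES replicate 1 and ST8 replicate 2. The difference was -1.27 ± 0.20 in ST5 (limma, adjusted p = 6.28e-05), -0.58 ± 0.20 in ES cells (adjusted p = 0.0337) and -0.52 ± 0.20 in ST8 (adjusted p = 0.0519). Without replicate 1 at day 5 the ES difference was -0.34 (adjusted p = 0.188), and without replicate 2 at day 5 that of ST8 was -0.23 (adjusted p = 0.303). Its widely expressed partner Cox6b1 was called in no response.

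Cox7a1, the heart and skeletal muscle isoform of Cox7a, moved the other way. It lay at 6.88, 6.72 and 6.91 in ES cells at day 0 and at 7.70, 6.90 and 6.71 at day 5. In ST5 it went from 6.87, 6.81 and 6.84 to 7.78, 7.49 and 7.51, and in ST8 from 6.64, 6.74 and 6.73 to 7.21, 7.94 and 7.28. The highest day 5 array in ES cells and in ST8 was again the one that stood apart in its endoderm markers. Cox7a1 rose by 0.75 ± 0.21 in ST5 and by 0.77 ± 0.21 in ST8 (limma, adjusted p = 0.00583 and 0.00611), and the ES difference of 0.27 ± 0.21 (adjusted p = 0.352) became -0.03 without replicate 1. Without replicate 2 at day 5 the ST8 rise was 0.54 (adjusted p = 0.035). The mean of 7 heart and striated muscle markers was 5.56 to 5.78 at day 0 and 5.99 to 6.51 at day 5; 3, 4 and 3 of them rose in ES cells, ST5 and ST8, and their part in the rise of Cox7a1 was not tested. Cox7a2 was called in no response.

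**Figure D4:**
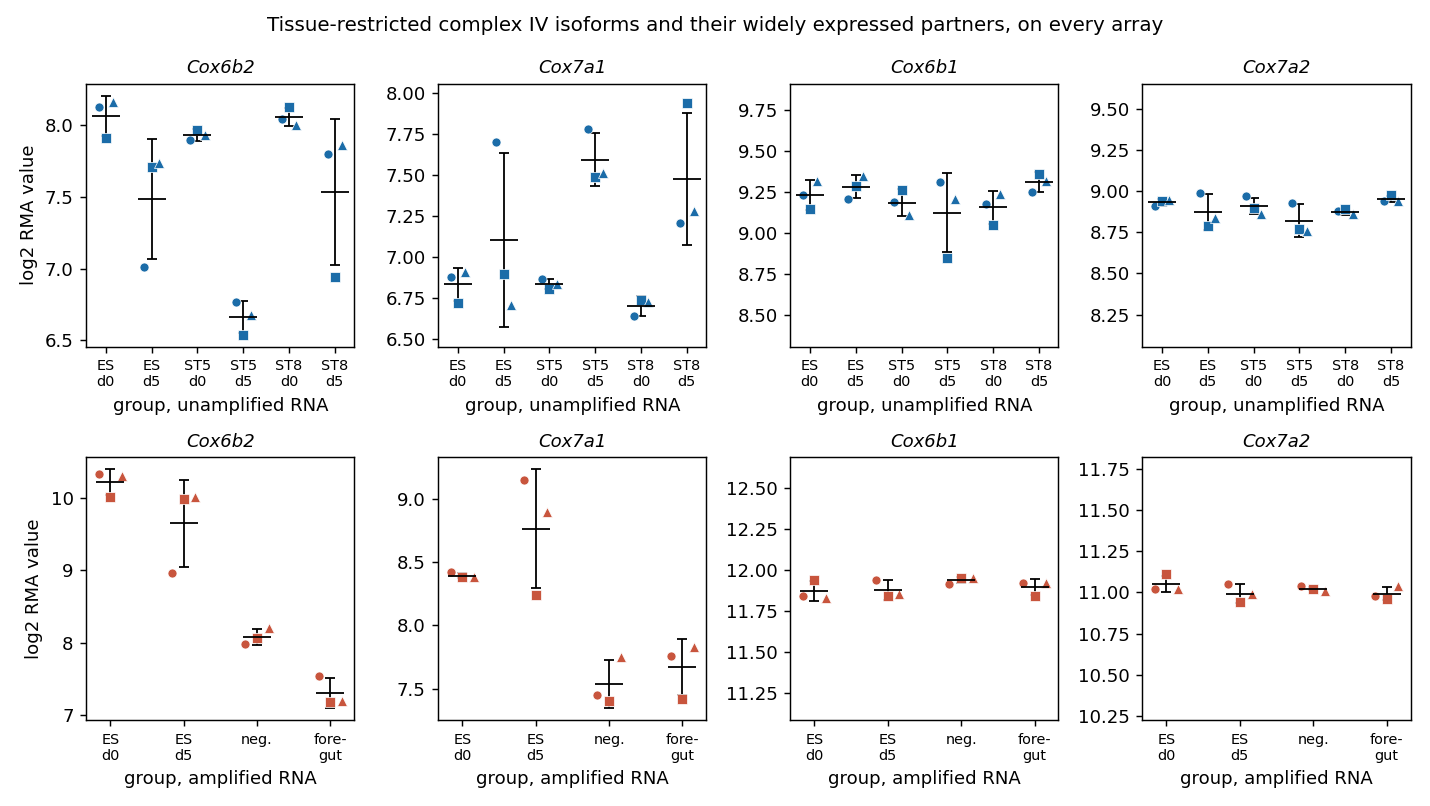
Cox6b2 and Cox7a1 beside their widely expressed partners Cox6b1 and Cox7a2: points are single arrays (circle, square and triangle for replicates 1, 2 and 3), in log2 RMA values, and bars are the mean ± SD of 3 arrays; the upper row has unamplified and the lower row amplified RNA. The day 5 arrays of ES cells and ST8 spread widely for Cox6b2 (7.01 to 7.74 and 6.94 to 7.86) and Cox7a1, while Cox6b1 and Cox7a2 were called in no response between the days.

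Among the other complex IV genes Cox5a, which is expressed in all tissues, fell from 9.35, 9.44 and 9.21 to 8.85, 8.63 and 8.62 in ES cells and by 0.40 in ST8. Cox6a1 fell by 0.34, 0.26 and 0.35 in ES cells, ST5 and ST8. Its call was lost in ES cells without replicate 3 at day 5 (adjusted p = 0.0542), in ST5 without any of 4 single arrays, and in the amplified ES cells (-0.26, limma, adjusted p = 0.049) without any of 9 single arrays. Cox8a, the widely expressed isoform of Cox8, fell by 0.33 in ES cells and by 0.31 in amplified ES cells. Cox7a2l, which helps complexes III and IV to join in supercomplexes, rose by 0.35 in ST5, 0.31 in ST8 and 0.26 in amplified ES cells, the last with an adjusted p of 0.0404 that rose to 0.118 with the mean of its probe sets. Cox8b, a muscle isoform near background, was called higher in ES cells by 0.18 and lost the call without any of 4 single arrays. Cox6a2, also a muscle isoform, fell by 0.22 in ST5 (adjusted p = 0.0236, and 0.143 without replicate 1 at day 5).

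Ndufa4l2, a gene known to be induced by hypoxia whose relative Ndufa4 sits in complex IV, rose in ST8. It lay there at 5.07, 5.23 and 5.08 at day 0 and at 6.37, 5.90 and 5.81 at day 5, a rise of 0.90 ± 0.15 (limma, adjusted p = 0.000118). In ES cells it went from 5.55, 5.47 and 5.16 to 6.03, 5.63 and 5.48, which overlap, and in ST5 it differed by 0.15 (adjusted p = 0.449). The ST8 response did not pass the test against that of ES cells (0.58 ± 0.21, limma, adjusted p = 0.279) or of ST5 (0.75 ± 0.21, adjusted p = 0.0701). Of 12 hypoxia-induced genes 6 rose and 2 fell in ES cells, 7 rose and 3 fell in ST5, and 7 rose and 1 fell in ST8. Of all genes 18.9%, 23.2% and 21.0% were called higher and 19.7%, 24.8% and 19.5% lower in the same order. Among them Bnip3, a mitophagy receptor, rose by 1.51 in ST5 and 1.49 in ST8. It rose in ES cells too, by 0.49 less than in ST5 (limma, adjusted p = 0.0422) and by 0.47 less than in ST8 (adjusted p = 0.128). Of the 12 genes Egln3 alone was called in the tests of the ST8 response against those of ES cells and ST5. Its differences there were 0.63 ± 0.14 and 0.84 ± 0.14 (limma, adjusted p = 0.0422 and 0.0113). Pdk1, which restrains pyruvate entry into the cycle, fell by 1.15, 1.26 and 1.39 in ES cells, ST5 and ST8. Ndufa4 was called in none of the 3 lines.

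Other lists of nuclear genes of the mitochondrion held more members called lower than higher in each of the 3 lines, although many members were not called. Of 77 mitochondrial ribosome genes 47 were lower and 1 higher in ES cells, 60 and 4 in ST5, 37 and 5 in ST8, and 30 and 2 in amplified ES cells, with medians of -0.21, -0.36, -0.18 and -0.20. Mrps18b, of the small subunit, fell by 0.88, 1.08 and 0.80 in the 3 lines, and Mrpl23, of the large one, rose by 0.65, 0.63 and 0.99. Of 23 import genes 15, 18 and 11 were lower in ES cells, ST5 and ST8, and 0, 1 and 2 higher. Of 35 assembly factors 16, 19 and 12 were lower and 2, 3 and 7 higher; Ecsit, an assembly factor of complex I, fell by 1.01, 1.34 and 0.88. Of 12 cycle genes 5, 7 and 7 were lower and 1, 2 and 2 higher, among them Idh3a, a subunit of the NAD-linked isocitrate dehydrogenase, which fell by 0.55, 0.83 and 0.34. These counts stand beside the shares of all genes given above (19.7%, 24.8% and 19.5% lower), and the difference between lists was not tested.

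Among regulators of mitochondrial biogenesis 9 of 20 were lower in each line and 3, 3 and 2 were higher. Esrrb, an orphan nuclear receptor of pluripotent cells that also regulates mitochondrial genes, fell by 4.62, 4.72 and 4.85. Tfam, which packages and transcribes mitochondrial DNA, fell by 0.50 ± 0.10, 0.47 ± 0.10 and 0.35 ± 0.10 (limma, adjusted p = 0.000892, 0.00113 and 0.0123). Neither Ppargc1a nor Ppargc1b, the coactivators PGC-1α and PGC-1β, was called in a response. Cycs, the somatic cytochrome c, fell by 0.34, 0.41 and 0.30, and Cox4i1, the widely expressed subunit 4 of complex IV, by 0.24 in ES cells and 0.17 in ST5. Of the 2 mitochondrially encoded genes with a probe set of their own, ND3 and COX2, both were lower in ES cells and ST8 and 1 in ST5.

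The response of ST8 differed from that of ST5 in 5 members, all of them less lowered or higher in ST8. The test of the difference called Sdhb (0.48 ± 0.09), Ndufb10 (0.44 ± 0.09), Ndufa2 (0.40 ± 0.10), Ndufa13 (0.37 ± 0.09) and Ndufa7 (0.37 ± 0.09), with limma adjusted p-values of 0.0197, 0.0301, 0.0447, 0.0485 and 0.043, against 2.17% of all genes called. Ndufa13, known also as GRIM-19, went from 7.50, 7.52 and 7.45 to 7.32, 7.29 and 7.33 in ST5 and from 7.43, 7.27 and 7.33 to 7.66, 7.46 and 7.48 in ST8. Ndufa2 likewise fell by 0.22 in ST5 and rose by 0.18 in ST8, and these were the only 2 members called in opposite directions in 2 of the 3 lines (2.53%, against 0.471% of all genes). None of the 5 remained when only the 4 groups concerned were fitted, or without ST8 day 5 replicate 1 or 3 or ST8 day 0 replicate 1 or 2, while 12 members were called without ST8 day 5 replicate 2. The shares of all genes called in these refits are not given.

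Against ES cells, 1 member responded differently in ST5: Ndufb10, a membrane arm subunit, with -0.43 ± 0.09 (limma, adjusted p = 0.0172), where 5.58% of all genes were called. It went from 5.64, 5.61 and 5.65 to 5.51, 5.54 and 5.46 in ES cells and from 5.75, 5.84 and 5.73 to 5.13, 5.18 and 5.32 in ST5. When ES day 5 replicate 2 was left out the adjusted p was 0.0511, and 6 members were called when replicate 1 was left out. These levels lie below the median of all genes, while the same probe set read 9.33 or more on amplified arrays. No member was called by limma in the test of the ST8 response against the ES response, where 0.838% of all genes were called and 9 members had an unadjusted p under 0.05. Without ES day 5 replicate 1, 1 member was called. The share of all genes is not given for the unadjusted count or for the fits without single arrays.

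Before differentiation the iPS clones and ES cells differed in 4 members, all lower in the clones (limma, adjusted p under 0.05), where 2.62% of all genes were called lower. Cell state markers differed in the same comparison. Of 9 endoderm markers 4 were higher in the clones and none lower (Cxcr4 by 1.29, Foxa2 by 1.17, Cer1 by 1.05 and Gsc by 1.02), and their array means were 6.47 to 7.08 in the clones against 5.93 to 6.10 in ES cells. Of 9 pluripotency markers Zfp42 alone was called, lower in the clones (-1.36 ± 0.23, limma, adjusted p = 0.00219). The part of these differences in those of the members was not tested. Ndufs5, an accessory subunit of complex I, lay at 7.40, 7.38 and 7.22 in ES cells, at 6.64, 6.62 and 6.59 in ST5 and at 6.40, 6.50 and 6.54 in ST8. The 6 clone arrays were all below the 3 ES arrays, with a difference of -0.78 ± 0.06 (adjusted p = 1.52e-06), or 0.58 of the ES level. At day 5 it lay at 7.13 to 7.16 in ES cells, 6.07 to 6.37 in ST5 and 6.39 to 6.44 in ST8. A probe set that names both Ndufs5 and its pseudogene Ndufs5-ps gave -0.28 at day 0, and which of these transcripts each probe set reads cannot be told apart here.

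The other 3 were Ndufc2, a membrane arm subunit of complex I, and both membrane anchors of complex II. Ndufc2 lay at 9.59, 9.49 and 9.68 in ES cells against 9.15 to 9.33 in ST5 and 9.20 to 9.28 in ST8 (-0.34 ± 0.06, limma, adjusted p = 0.00236). Sdhc lay at 9.01, 9.04 and 9.14 against 8.65 to 8.70 and 8.73 to 8.75 (-0.36 ± 0.06, adjusted p = 0.00152). Sdhd lay at 9.28, 9.31 and 9.35 against 8.82 to 9.16 and 8.79 to 9.0 (-0.39 ± 0.07, adjusted p = 0.00419). In each of the 4 genes the clones and ES cells did not overlap. Between the 2 clones no member was called by limma at day 0, where 0.0652% of all genes were called. An unadjusted limma p under 0.05 was found for 6 members. In 72 of the 79 genes the ST8 mean was below that of ST5, with a median difference over all 79 of -0.07, where that of all genes was -0.02. The counts of 6 and 72 are not given for all genes.

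**Figure D5:**
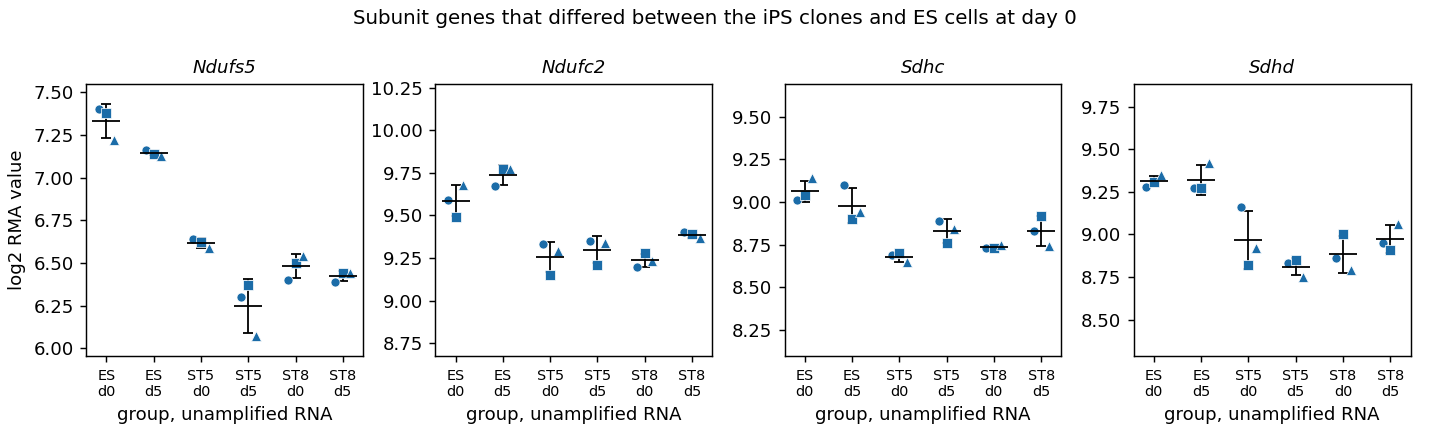
The 4 subunit genes that differed between the iPS clones and ES cells at day 0, on the 18 unamplified arrays: points are single arrays (circle, square and triangle for replicates 1, 2 and 3), in log2 RMA values, and bars are the mean ± SD of 3 arrays. Ndufs5 lies at 7.22 to 7.40 in ES cells and at 6.40 to 6.64 in the clones at day 0.

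Among the day 5 groups, markers of cell state differed too, and their part in the differences of the members was not tested. The pluripotency mean was 5.99 to 6.13 in ST5, 7.26, 5.94 and 7.23 in ST8 and 6.50, 7.07 and 7.05 in ES cells, and the endoderm mean was 9.43 to 9.56 in ST5, 8.41, 9.54 and 8.29 in ST8 and 9.51, 8.38 and 8.34 in ES cells. ES replicate 1 and ST8 replicate 2 thus read nearer to ST5 than their companions did. Between ST8 and ST5, Nanog (2.76), Tdgf1 (3.02) and Fbxo15 (0.39) of the 9 pluripotency markers were called higher in ST8 and Klf4 (-1.24) lower, and of the 9 endoderm markers Foxa1 (-0.77) was lower. Between ST5 and ES cells 4 pluripotency markers were lower and 1 higher in ST5, and 3 endoderm markers were higher; between ST8 and ES cells no marker of either list was called.

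At day 5 ST5 had 15 members lower and 2 higher than ES cells, where 11.8% of all genes were called lower and 11.6% higher. The difference was -0.90 ± 0.07 for Ndufs5, -0.51 ± 0.08 for Sdhd, -0.43 ± 0.07 for Ndufc2, -0.37 ± 0.06 for Ndufa7 and -0.35 ± 0.06 for Atp5g2. Cox6b2 was at -0.82 ± 0.20 (adjusted p = 0.0106, and 0.0583 and 0.0618 without ES day 5 replicates 2 and 3). ST8 differed from ES cells in Ndufs5 (-0.72 ± 0.07) and Ndufc2 (-0.35 ± 0.07) alone, against 0.958% of all genes. The call of Ndufc2 was lost without replicate 1 or 3 of ST8 or 2 or 3 of ES cells at day 5. The probe set that names both Ndufs5 and Ndufs5-ps gave smaller differences from ES cells at day 5, -0.26 for ST5 and -0.16 for ST8. Of the members 12 were higher in ST8 than in ST5 and none was lower, where 8.29% of all genes were called higher. They included Cox6b2 (0.87 ± 0.20), Ndufa4l2 (0.68 ± 0.15), Sdhb (0.37 ± 0.06), Ndufa7 (0.33 ± 0.06) and Atp5g2 (0.32 ± 0.06). This count was 3 without ST8 day 5 replicate 1, 5 without replicate 3 and 16 without replicate 2, 7 without ST5 day 5 replicate 2 or 3, and 0 when only these 2 groups were fitted. The shares of all genes called in these fits are not given.

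The day 5 contrasts rest in part on the arrays that stood apart, and leaving out ES replicate 1 and ST8 replicate 2 together, a choice made after seeing the data, moved several of their counts. Counts between the days were then 31, 47 and 27 for ES cells, ST5 and ST8, within 1.5 times of those above. The ST8 and ES cells differed at day 5 in 7 members, the responses of ST5 and ES cells in 8, those of ST8 and ES cells in 3 and those of ST8 and ST5 in 16. At day 0 the clones and ES cells differed in 8 members in that fit, since all groups share the estimate of spread. The shares of all genes called in that fit are not given, so a rise in these counts may not be particular to the members.

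Between the 2 sorted populations of the embryo 1 of the 79 members was called. Ndufv1 lay at 8.28, 8.05 and 8.27 in foregut against 8.51, 8.48 and 8.56 in the ENDM1-negative cells (-0.31 ± 0.08, limma, adjusted p = 0.0308), where 8.14% of all genes were called. This call was lost without any single ENDM1-negative array or foregut replicate 2 (adjusted p up to 0.103). Altogether 59 of the members had a lower mean in foregut, with a median difference of -0.06, where that of all genes was 0.01. An unadjusted limma p under 0.05 was found for 11 members. Neither of these counts is given for all genes. Of 77 mitochondrial ribosome genes 16 were lower in foregut and none higher, among them Mrps18b at -0.65 ± 0.10. Blood markers had a mean of 6.04 to 7.24 in both embryo populations against 4.82 to 5.15 in ES cells at day 5, and endothelial markers 6.64 to 7.22 in the ENDM1-negative cells against 5.40 to 5.49 in foregut. Neural and surface ectoderm markers had a mean of 6.98 to 7.35 in the ENDM1-negative cells and 5.85 to 6.04 in foregut. In amplified ES cells at day 5 it was 6.09 to 6.15. Their part in these differences was not tested.

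Against ES cells at day 5, the embryo populations differed in strain, RNA kit and source together, which cannot be told apart. Foregut had 8 members higher and 10 lower, where 14.7% and 9.42% of all genes were called, and the ENDM1-negative cells had 14 higher and 8 lower, where 16.5% and 9.76% were called. Both comparisons use the same 3 ES arrays. Cox6b2 lay at 8.96, 9.98 and 10.01 in ES cells at day 5, at 7.54, 7.18 and 7.19 in foregut and at 7.98, 8.06 and 8.20 in the ENDM1-negative cells. The difference was -2.34 ± 0.22 for foregut and -1.57 ± 0.22 for the ENDM1-negative cells (limma, adjusted p = 1.55e-05 and 0.000242). Cox7a1 lay at 9.15, 8.24 and 8.90 in ES cells, at 7.76, 7.42 and 7.83 in foregut and at 7.45, 7.40 and 7.75 in the others, with differences of -1.09 ± 0.19 and -1.23 ± 0.19 (adjusted p = 0.00131 and 0.000423). These were the only members called with more than a 2-fold change.

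The members higher in both embryo populations included several of those lower at day 5 than at day 0 in culture. Atp5g1 lay at 8.81, 8.61 and 8.79 in ES cells at day 5, at 9.27, 9.10 and 9.29 in foregut and at 9.43, 9.60 and 9.53 in the ENDM1-negative cells, while day 0 ES cells read 9.11, 9.28 and 9.23. The differences from day 5 were 0.48 ± 0.09 and 0.78 ± 0.09 (limma, adjusted p = 0.00211 and 4.83e-05). Uqcrc1 was higher by 0.51 and 0.60, Uqcrq by 0.40 and 0.60 and Ndufs8 by 0.42 and 0.70. For these genes the ES arrays at day 5 are the ones that were lower than at day 0. Ndufa8, an accessory subunit of complex I, was higher by 0.37 and 0.59. Between the days it was not called in unamplified ES cells (-0.12, limma, adjusted p = 0.142), while it was lower in ST5 (-0.28, adjusted p = 0.00129). Ndufs8 in foregut fell short of the threshold without ES day 5 replicate 3 or foregut replicate 1 or 3 (adjusted p from 0.0634 to 0.0947), and Ndufa8 without ES day 5 replicate 3 or foregut replicate 1. Lower in both populations were Ndufa12, a complex I accessory subunit (-0.72 and -0.46), and Cox7a2l (-0.38 and -0.42). Of the mitochondrial ribosome genes 37 of 77 were higher and 3 lower in the ENDM1-negative cells, and 10 and 7 in foregut; of the import genes 14 of 23 were higher and none lower in the former and 4 and 1 in the latter.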

How the data were processed

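Expression was measured on Affymetrix Mouse Gene 1.0 ST arrays. Per the submitters' processing notes the deposited values are log2 RMA values; the RMA version, and whether both labellings went through RMA at once, are not given in the sources used here, so levels were compared within each labelling. Of 35556 probe sets, 23410 were listed in the platform annotation, 21789 with 1 gene and 1621 with several; the latter and 12146 not listed were left out. For a gene with several probe sets (16 members) the probe set brightest on average over the 30 arrays was used. Subunit genes have many processed pseudogenes, so cross-hybridisation is possible.

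Group means were fitted with limma 3.58.1 in R 4.3.3, to the 18 unamplified arrays (6 groups) and the 12 amplified arrays (4 groups); the comparison of labellings used the 12 ES arrays. Tests were two-sided with Benjamini-Hochberg adjustment over 19938 genes and a threshold of 0.05; the code was tested on simulated data. Errors of differences are standard errors. Whether replicates were separate cultures is known only as far as the labels call them biological replicates. Arrays carry no read depth; the precision is limited by how many there are.

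The members and lists were chosen with earlier results of these data known. Named genes were the 5 largest called rises and falls per comparison without overlap between arrays, all isoform genes and complex II; from other lists the 2 largest per direction and 7 preset regulators and chain genes. Other genes with values (such as Uqcrc1, Ndufs8 and Atp5a1 outside the comparisons where the rule names them) were chosen after their values were seen. Promoters and coordinates are from RefSeq (GRCm38.p6). Alternatives were a fit of only the groups compared, quantile normalization, a common array median, averaging the probe sets of a gene, no genes under the median level, trend and robust options, a replicate block, 1 fit of all arrays, and leaving out single arrays.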

Additional observations from a re-analysis of the deposited data

Results flagged for a closer look

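The test of the difference between 2 lines' responses flagged 6 results. The response of Ndufb10 was more negative in ST5 than in ES cells, by -0.43 on the log2 scale. The responses of Sdhb (0.48), Ndufb10 (0.44), Ndufa2 (0.4), Ndufa13 (0.37) and Ndufa7 (0.37) were higher in ST8 than in ST5. Groups of 3 arrays were too small to be examined for single outlying values.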

How the results depend on the processing

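The counts of members called between the days stayed within 1.5 times of those reported under each alternative that kept all arrays, and leaving out single arrays gave 23 to 31 for ES cells, 34 to 43 for ST5, 22 to 29 for ST8 and 12 to 20 for amplified ES cells. In ST8 the split of 12 higher and 13 lower became 8 and 14 when only its own groups were fitted. Other counts moved more, and the cause was not tested unless fewer samples or genes were fitted. The shares of all genes called under these alternatives are not given beside the counts. Fitting only the groups compared gave 9 members for ST5 against ES cells at day 5, 1 for ST8 against ES cells, 0 for ST8 against ST5 at day 5, 0 for the responses of ST8 and ST5, and 14 for ENDM1-negative cells against ES cells. Further quantile normalization gave 26 for ST5 against ES cells at day 5, 6 for the responses of ST5 and ES cells, and 0 for foregut against ENDM1-negative cells. Without genes under the median level the counts were 8 for clones against ES cells at day 0, 8 for the responses of ST8 and ST5 and 3 for foregut against ENDM1-negative cells. The last was also 3 with a common array median and with trend and robust options, and 6 in 1 fit of all arrays. Without the 2 unlike day 5 arrays (ES replicate 1, ST8 replicate 2; added after seeing the data) counts were 8 for clones against ES cells at day 0, 7 for ST8 against ES cells at day 5, and 8, 3 and 16 for the responses of ST5 and ES cells, ST8 and ES cells, and ST8 and ST5. For ENDM1-negative cells the split of 14 higher and 8 lower became 12 and 10 with quantile normalization and 18 and 6 with a common median, and for foregut 8 and 10 became 11 and 10, and 10 and 9.

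Leaving out single arrays gave 4 to 6 members for clones against ES cells at day 0, 9 to 18 for ST5 and 1 to 5 for ST8 against ES cells at day 5, 0 to 0 and 3 to 16 for ST8 against ST5 at day 0 and day 5, 0 to 6, 0 to 1 and 0 to 12 for the responses of ST5 and ES cells, ST8 and ES cells, and ST8 and ST5, 0 to 2 for foregut against ENDM1-negative cells, 12 to 20 and 13 to 23 for these against ES cells, and 0 to 0 for the labellings.

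Of 94 calls of named members 29 were lost under at least one alternative, 26 of them without some single array and 22 when only the groups compared were fitted; none changed sign under any alternative. Some members that were not called changed sign, and their lowest and highest values over the single arrays left out were -0.03 to 0.47 for Cox7a1 in ES cells (-0.03 without both unlike arrays), -0.08 to 0.07 for Cox8a in ST5 against ES cells at day 5 (0.07 without both), -0.19 to 0.34 for Cox6b2 in ST8 against ES cells at day 5, -0.04 to 0.10 for Atp5g3 in ST8 (-0.04 without both), -0.11 to 0.03 and -0.13 to 0.01 for Atp5g3 in ST8 against ES cells and ST5 at day 5, -0.16 to 0.07 for Cox6b1 and -0.12 to 0.10 for Cox8c in ST5, and -0.16 to 0.01 for Sdhd in ST8 against ST5 at day 0. Among amplified arrays they were -0.21 to 0.04 for Cox6a2 and -0.13 to 0.31 for Ndufa4l2 in ES cells, -0.39 to 0.06 for Ndufa4l2 in ENDM1-negative against ES cells, and -0.08 to 0.14 for Cox8b in foregut against ES cells. With its probe sets averaged Cox7a2l was at 0.08 in the responses of ST8 and ST5.

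Whether the replicate numbers pair the samples could not be settled. Of 45 unamplified pairs of the same number 9 had a correlation of deviations over 0.1 (median 0.022). Of 90 unamplified pairs of different numbers 13 did (median -0.002). Among amplified pairs none of 18 and none of 36 did. Pairs across the 2 labellings were not examined, and the test of the labellings treated the 12 ES arrays as separate. With the replicate block the counts were 32, 43, 28 and 14 for the responses of ES cells, ST5, ST8 and amplified ES cells, 4, 18, 2, 0 and 12 for the comparisons of lines, 1, 0 and 4 for the differences of responses, 1, 15 and 19 for the embryo and 0 for the labellings. With 3 arrays a group small differences may be missed, and members below the median of all genes give little signal over background.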

Other observations

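Among genes of the mitochondrion outside the chain, both the germ line and the somatic form of cytochrome c fell between the days, and so did 2 ADP/ATP carriers. Cyct, the testis form of cytochrome c, lay at 7.05, 6.62 and 7.07 in ES cells at day 0 and at 4.26, 4.26 and 4.61 at day 5. Its difference was -2.54 ± 0.19, -2.60 ± 0.19 and -2.86 ± 0.19 in ES cells, ST5 and ST8 (limma, adjusted p = 3.71e-08, 1.76e-08 and 8.51e-09), and -4.0 ± 0.14 in amplified ES cells, from 9.40, 9.57 and 9.44 to 5.42, 5.35 and 5.62. Unlike Cox6b2, all 3 arrays of each day 5 group were low. Slc25a31, the germ line ADP/ATP carrier, fell by 0.69, 0.76, 0.86 and 0.39 in the same order, at levels of 2.94 to 4.18 that lie below the median of all genes.

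Cycs, the somatic cytochrome c, fell by 0.34, 0.41 and 0.30 in the 3 lines. Slc25a5, a widely expressed ADP/ATP carrier, fell from 11.18, 11.14 and 11.13 to 10.36, 10.37 and 10.25 in ES cells, and by 0.99 ± 0.06 in ST5 and 0.75 ± 0.06 in ST8 (limma, adjusted p = 3.28e-09 and 9.51e-08). Slc25a4, the heart and muscle carrier, rose by 0.65 ± 0.20 in ES cells and by 0.98 ± 0.20 in ST5 (adjusted p = 0.0174 and 0.00071), and differed by 0.37 ± 0.20 in ST8, where the test was not passed (adjusted p = 0.174). Its ST8 response did not pass the test against that of ES cells (-0.28 ± 0.29, limma, adjusted p = 0.803) or of ST5 (-0.61 ± 0.29, adjusted p = 0.244). In ST8 at day 5 Slc25a4 lay at 10.66, 11.64 and 10.63, against 10.62, 10.67 and 10.54 at day 0, and in ES cells at 11.46, 10.94 and 10.92, against 10.43, 10.42 and 10.51. The high arrays were ES replicate 1 and ST8 replicate 2, those that also stood apart in Cox6b2, Cox7a1 and the endoderm markers.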
